A study of Mus musculus with 6 samples.

Results

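The Rab genes encode small GTPases of the Ras superfamily that mark the membranes of the endocytic and secretory routes. A Rab protein switches between a GDP-bound and a GTP-bound form. Exchange factors load it with GTP, GTPase activating proteins switch it off, and in the GTP-bound form it recruits effectors such as tethers and motor proteins to the vesicle. Lipid tails added by a prenyltransferase hold it in the membrane, and GDP dissociation inhibitors carry it between membranes. In B lineage cells these routes serve surface receptor uptake and recycling, antigen processing and secretion. The genes were chosen by name, as every probe set with a single platform gene symbol made of Rab, a number and at most 1 further letter and digit, whatever its change with dose. This gave 59 genes on the array, of which 39 reached a signal of 100 on at least 1 array, among 9678 genes measured in all, and the brightest probe set stood for each gene.

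The arrays measured murine pre-B cells that the oncogenic kinase v-Abl had transformed and kept cycling. The lines came from wild type mice carrying an Eμ-Bcl2 transgene, active in lymphocytes and protective against apoptosis. All cells, controls included, had been held in 3 μM STI-571 (imatinib), an inhibitor of the Abl kinase, for 48 hours and were thus arrested in G1. Of 3 independently derived lines, each was measured once mock-irradiated (0 Gy) and once 2 hours after 1 Gy of ionizing radiation. Replicate numbers stand for the lines, and no line was sampled more than once per dose. With the line as a block (doses compared within lines), a p-value sets the dose difference against its own spread between lines. Without the block, it sets that difference against the spread between lines at each dose.

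Total RNA was hybridised to Affymetrix Mouse 430 2.0 arrays, on which a probe set of short oligonucleotides gives 1 linear signal per transcript. Between 41.7% and 43.8% of 45037 probe sets reached 100 on an array. All 8 B lineage markers measured, among them Cd79a, Pax5 and Vpreb1, reached 100. None of 4 erythroid markers did, and of 7 stromal markers only Vim did. Among 6 T cell markers only Cd2 reached 100, with the Cd3 chains below it, and the summed signal of the list was 705 to 2494 at 0 Gy and 202 to 934 at 1 Gy. Myeloid markers (3 of 7 at 100, Cd68, Itgam and, on 1 mock array, Csf1r) summed to 361 to 407 and 511 to 576. Within this list Csf1r went the other way, lower in 3 of 3 lines (log2 fold change -0.88), and Lyz2 was below 100. The 3' to 5' signal ratio of beta-actin, a sign of RNA quality, was 1.40 to 1.501 on mock and 1.26 to 1.38 on irradiated arrays, lower in 3 of 3 lines, while that of Gapdh was 0.768 to 0.900 and 0.785 to 0.800, lower in 1 line. The part of these shifts in the results below was not tested.

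After irradiation, calls among Rab genes were no more frequent than among all genes, and none was for a rise. Rab12 came closest to one (limma adjusted p = 0.0546) and was called higher under some of the other settings described below but not under others. Its limma adjusted p was 0.137 without the block, 0.334 with no filter and 0.0582 with a common median. With line 1, 2 or 3 left out it was 0.157, 0.151 and 0.203. A missing call does not show that a gene was unchanged. With the line as a block, 5 of the 39 measured genes (12.8%) fell and 0 rose (limma, adjusted p under 0.05 over all 21762 probe sets tested), where 14.7% of all measured genes fell and 6.61% rose, 21.3% in either direction. Of the 5, Rab43, Rab24 and Rab37 reached 100 at both doses. Rab27a and Rab33a reached 100 on mock arrays only. A gene admitted by 1 dose alone had to differ, so the values of these 2 are a description and support no count. Of the 35 Rab genes that reached 100 at both doses, 3 fell (8.57%) and 0 rose, beside 14% and 6.64% of the 9039 such genes on the array. Before adjustment, 7 of the 39 had p under 0.05 with a lower and 3 with a higher signal, beside 2695 and 1204 of all 9678 genes (limma). The 7 include Rab27a and Rab33a, and the 3 include Rab30, which reached 100 on irradiated arrays only. In RNA from whole cultures, fewer cells with a transcript and less of it per cell cannot be told apart. The median log2 fold change of the 39 genes was -0.12, beside -0.11 over all measured genes. In the separate lines the Rab median was 0.05, -0.14 and -0.12 (lines 1, 2 and 3). Signals fell in 3 of 3 lines for 14 Rab genes (35.9%, against 41.3% of all genes) and rose in 3 of 3 for 9 (23.1%, against 23.7%). Rab27a and Rab33a are among the 14. The 95% interval of the log2 fold change lay within 1 of 0 for 28 of the 39. Without the block, the adjusted p was 0.0538 for Rab27a, 0.0841 for Rab24, 0.217 for Rab33a and 0.22 for Rab37, and limma called 1 gene lower, Rab43, and 0 higher, where 3.2% and 2.11% of all genes were called (5.31% in either direction). With any 1 line left out, 0 Rab genes were called lower, although 5 to 10 had an unadjusted p under 0.05. Of all 21762 probe sets, 5714 to 6570 had one in either direction in these fits, a count unlike the Rab one in unit and direction. Without line 1 or line 2, limma called 0 of all probe sets, and without line 3 it called 299. The lack of Rab calls without line 1 or line 2 is thus not particular to Rabs.

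**Figure D1:**
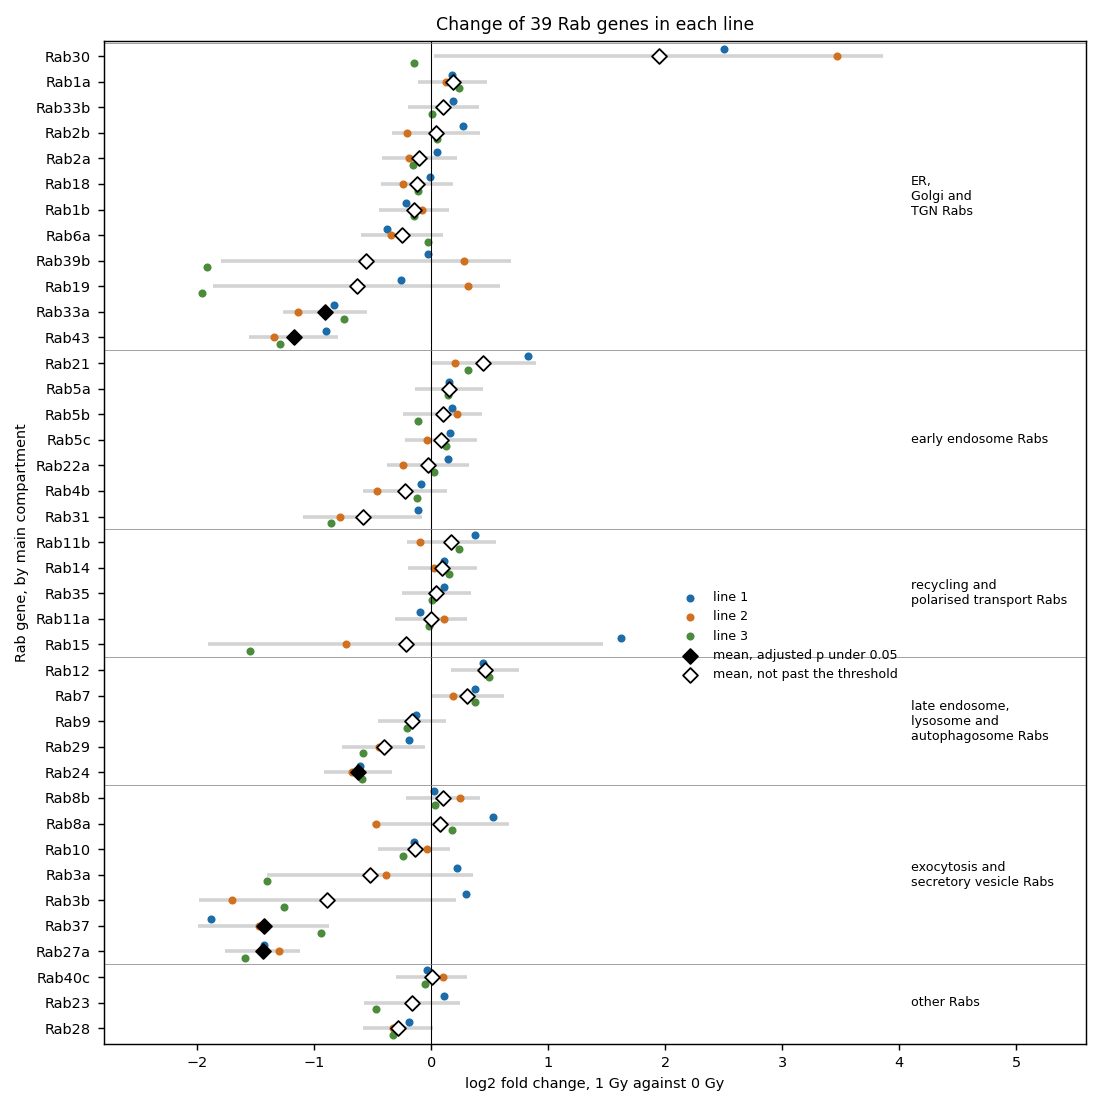
Log2 fold change (horizontal axis, 1 Gy against 0 Gy) of the 39 measured Rab genes (vertical axis), grouped by main compartment. Small points are the 3 lines, diamonds their mean and grey bars its 95% interval from limma with the line as a block. The 5 filled diamonds, past an adjusted p of 0.05, all lie left of 0, and Rab30 lies apart to the right in lines 1 and 2 only.

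Of the 7 Rabs of exocytosis and secretory vesicles, Rab37 and Rab27a were called lower, the latter measured above 100 at 0 Gy only. Over all genes, 14.7% were called lower. Rab27a, which docks secretory lysosomes and related vesicles at the plasma membrane, had signals of 167, 182 and 119 at 0 Gy and 61.9, 73.9 and 39.6 at 1 Gy (lines 1, 2 and 3). All irradiated signals lay below all mock signals and below 100. Its mean was 156 ± 32.9 at 0 Gy and 58.5 ± 17.4 at 1 Gy (SD, n = 3 lines), a log2 difference of -1.44 in a gene that entered the fit through its mock arrays. Rab37, found on secretory granules of haematopoietic cells, had 129.6, 145 and 278 at 0 Gy and 35.1, 52.1 and 145 at 1 Gy. It fell in every line, yet the irradiated signal of line 3 lay above the mock signals of lines 1 and 2, so that the doses overlapped unless compared within lines. The log2 fold change was -1.43 (SE 0.21, limma adjusted p = 0.0218). With signals under 100 set to 100, the log2 fold change of Rab37 shrank to -0.61 (limma adjusted p = 0.0461). The log2 difference of Rab27a shrank to -0.62, a description, since all its irradiated signals then stood at 100.

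The other exocytic Rabs did not pass the test. Rab10, which drives exocytosis and insulin-regulated transporter delivery, had signals of 5425, 5750.0 and 5967 at 0 Gy and 4892, 5609 and 5037 at 1 Gy, and its log2 fold change was -0.14 (95% interval -0.45 to 0.16). Rab8a and Rab8b, which act in transport from the Golgi to the plasma membrane, had log2 fold changes of 0.08 (95% interval -0.51 to 0.67) and 0.10 (95% interval -0.21 to 0.42). Rab3a, a Rab of synaptic and other regulated vesicles, had signals of 924, 1609 and 1525 at 0 Gy and 1077, 1232 and 576 at 1 Gy. Line 1 was higher after 1 Gy and line 3 much lower (adjusted p = 0.316 from limma), and the probe set carries the suffix of sets whose probes can match other transcripts. A second probe set had a log2 fold change of -1.38 (limma adjusted p = 0.0558). Rab3b was at or under 132 on every array.

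Of the 12 Rabs of the endoplasmic reticulum and Golgi, Rab43 and Rab33a were called lower and 0 higher, Rab33a by way of 1 mock array. The shares over all genes were 14.7% and 6.61%. Rab43, which acts at the Golgi, had signals of 1458, 2460.0 and 2096 at 0 Gy and 784, 973 and 855 at 1 Gy. All 3 irradiated arrays lay below all mock arrays. The mean fell from 2005 ± 507 to 870.5 ± 95.3 (log2 fold change -1.18, SE 0.14, limma adjusted p = 0.0169), a ratio of 0.443, and this gene also passed without the block (adjusted p = 0.0496). Rab33a, a Golgi Rab that like Rab33b can bind the autophagy protein Atg16l1, was dim, with 89.9, 85.3 and 148 at 0 Gy and 50.7, 38.6 and 87.5 at 1 Gy. Only 1 of its 6 signals reached 100, and the irradiated signal of line 3 lay above the mock signal of line 2. The log2 difference was -0.91, and with signals under 100 set to 100 it was -0.19, again with all irradiated signals at 100. Its paralog Rab33b had mean signals of 2891 ± 419 and 3093 ± 252 and a log2 fold change of 0.10 (95% interval -0.20 to 0.41). The difference between the paralogs was not tested.

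The Rabs of constitutive transport on this route did not pass the test. Rab1a, which controls traffic from the endoplasmic reticulum to the Golgi, had signals of 5797, 5829 and 5426 at 0 Gy and 6568, 6379 and 6388 at 1 Gy. The irradiated arrays were all higher than the mock arrays, by a log2 fold change of 0.18 (95% interval -0.11 to 0.48), short of a call (limma adjusted p = 0.301). Rab1b, Rab2a, Rab2b, Rab6a and Rab18 had log2 fold changes between -0.25 and 0.04. Rab19 and Rab39b lay under 100 on most arrays and their lines disagreed in direction.

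Rab30, another Golgi Rab, differed between lines. Its signals were 62.3, 60.8 and 72.0 at 0 Gy and 353, 676 and 64.9 at 1 Gy. Lines 1 and 2 went from below 100 to above it, and line 3 stayed below. The mean log2 fold change of 1.94 (SE 0.72) missed the threshold (limma adjusted p = 0.133). Without line 1, line 2 or line 3 it was 1.66, 1.18 and 2.99 (limma adjusted p = 0.322, 0.333 and 0.0493). Of these fits, only that without line 3, which stayed low on this probe set, gave a call. With all lines kept, limma called Rab30 higher with a trend in the variance prior (adjusted p = 0.0356) and with the mean of all probe sets (0.036). Rab30 reached 100 on irradiated arrays only, so its values and these calls are a description and support no count. A second, dimmer probe set read 39.2, 12.8 and 3.03 at 0 Gy and 125, 161 and 18.7 at 1 Gy (log2 difference 2.65), and it too entered the fit through irradiated arrays alone. Whether the lines differ in their response cannot be tested with 1 array per line and dose.

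**Figure D2:**
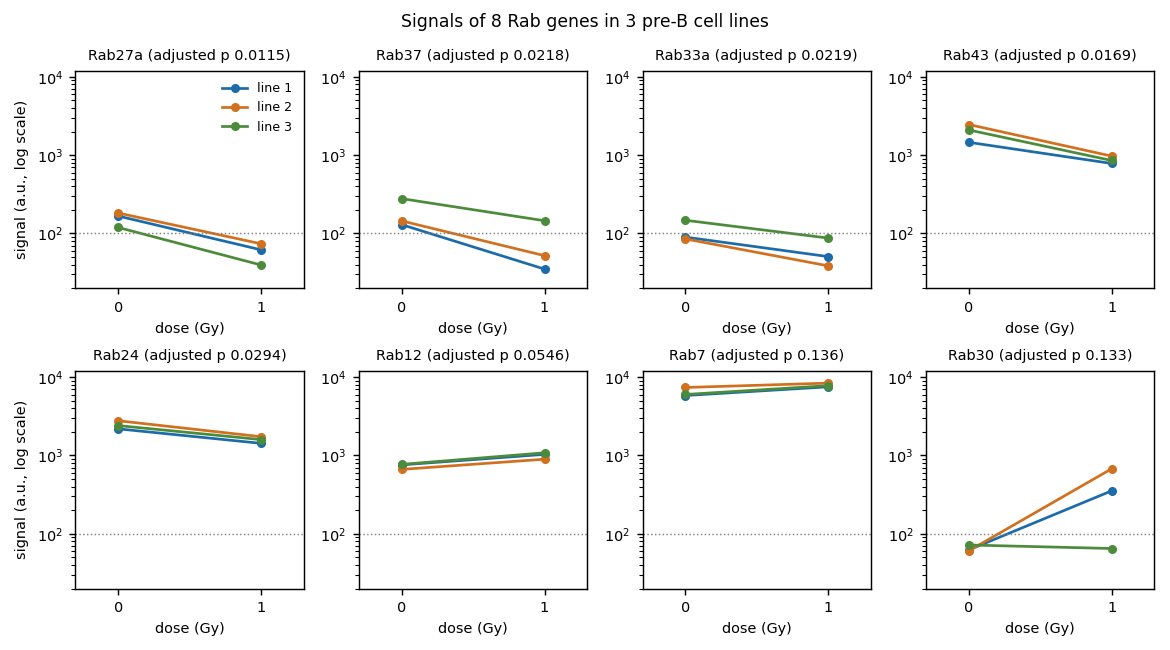
Signals of 8 Rab genes on a logarithmic vertical axis in arbitrary units, with a dotted line at 100, against dose in Gy. Segments connect both arrays of a cell line, with the adjusted p of limma with the line as a block above each panel. Rab27a, Rab37, Rab33a, Rab43 and Rab24 fall in all 3 lines, Rab12 and Rab7 rise in all 3 without passing the test, and Rab30 rises in lines 1 and 2 only.

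Among the 5 Rabs of late endosomes, lysosomes and autophagosomes, 1 fell and 0 rose, beside 14.7% and 6.61% of all genes. Rab24, an atypical Rab that acts in late endosomes and in clearing autophagosomes, had signals of 2186, 2773 and 2407 at 0 Gy and 1428, 1737 and 1594 at 1 Gy. The irradiated arrays lay below all mock arrays, and the lines moved by nearly the same amount (log2 changes of -0.61, -0.68 and -0.59). The mean fell from 2455 ± 297 to 1586 ± 154 (log2 fold change -0.63, SE 0.11, limma adjusted p = 0.0294). Rab12, which directs recycling cargo such as the transferrin receptor to lysosomes, moved the other way, with 759, 664 and 769.8 at 0 Gy and 1032, 896 and 1082 at 1 Gy. All irradiated arrays were higher than all mock arrays, and the log2 fold change of 0.46 (SE 0.11) fell just short of the threshold (limma adjusted p = 0.0546). Rab7, which drives fusion of late endosomes with lysosomes, had 5824, 7377 and 6009 at 0 Gy and 7521, 8388 and 7782 at 1 Gy, again without overlap (log2 fold change 0.31, 95% interval 0.00 to 0.62, adjusted p = 0.136 from limma). Rab9, of transport from endosomes to the trans-Golgi network, had a log2 fold change of -0.17 (95% interval -0.46 to 0.12), and Rab29, a partner of the kinase Lrrk2, one of -0.41 (adjusted p = 0.102). Across the whole family, irradiated and mock arrays did not overlap for 4 genes that were lower (Rab27a, Rab43, Rab24 and Rab28) and 4 that were higher (Rab12, Rab7, Rab1a and Rab14), 10.3% each, where 20.6% and 12.3% of all genes did not overlap. Rab27a reached 100 on mock arrays only, so its place among the 4 that were lower is a description.

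None of the 7 early endosome Rabs passed the test by limma (1 lower and 0 higher at an unadjusted p under 0.05). Rab21, which acts in integrin uptake, had signals of 4619, 5293 and 7088 at 0 Gy and 8228, 6062 and 8763 at 1 Gy. It was higher in each line with overlapping doses (log2 fold change 0.45, 95% interval -0.01 to 0.89, adjusted p = 0.139 from limma). Rab5a, Rab5b and Rab5c, the isoforms that organise early endosome fusion, had log2 fold changes of 0.15, 0.10 and 0.08, and their 95% intervals together ran from -0.24 to 0.44. Rab31, of transport between the trans-Golgi network and endosomes, had 249.6, 1347 and 914 at 0 Gy and 231, 782 and 503 at 1 Gy. Lines 2 and 3 were far above line 1 at both doses, and all 3 lines were lower after 1 Gy (log2 fold change -0.59, adjusted p = 0.102 with the block and 0.7 without it, by limma).

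None of the 5 recycling Rabs passed the test either (0 at an unadjusted p under 0.05, limma). Rab14, which links the Golgi and recycling endosomes, had 8081, 8342 and 7763 at 0 Gy and 8722, 8481 and 8636 at 1 Gy, with each line slightly higher after 1 Gy (log2 fold change 0.10, 95% interval -0.20 to 0.39). Rab11a and Rab11b, of the slow recycling route, had log2 fold changes of 0.00 (95% interval -0.31 to 0.31) and 0.17 (95% interval -0.21 to 0.55), and Rab35, of fast recycling, one of 0.04 (95% interval -0.25 to 0.34). Rab15 was at or under 121 on every array and its lines went both ways. Of the 3 remaining genes, Rab28, linked to cilia and photoreceptors, had 2051, 2137 and 2154 at 0 Gy and 1795, 1702 and 1712 at 1 Gy (log2 fold change -0.28, adjusted p = 0.151 from limma), without overlap, while Rab23 and Rab40c had log2 fold changes of -0.17 and 0.00.

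Of the 39 genes, 25 had a mean mock signal of 1000 or more, and 2 of these fell, Rab43 and Rab24. Over all measured genes of any brightness 14.7% fell, and no share was taken for genes this bright. The other 23 had log2 fold changes of -0.52 to 0.45. The range of the line means often exceeded the dose change, in Rab genes much as in all genes. A range over 3 lines and a difference between doses are unlike measures, and both carry array noise. In 26 of 39 genes (66.7%) the range of the line means exceeded the size of the dose change, as it did for 61.9% of all genes. The Rab genes had a median range of 0.34 on the log2 scale beside a median dose change of 0.18 in size. Over all genes these medians were 0.4 and 0.31. The widest ranges were those of Rab19 (4.39), Rab39b (3.58) and Rab3b (3.04), all with most signals under 100, and that of Rab31 was next (2.10).

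The 20 Rab genes under 100 on all 6 arrays were Rab3c, Rab3d, Rab4a, Rab6b, Rab7b, Rab9b, Rab13, Rab17, Rab20, Rab25, Rab26, Rab27b, Rab32, Rab34, Rab36, Rab38, Rab39, Rab40b, Rab42 and Rab44. Their highest signals on any array ran from 5.37 (Rab26) to 90.3 (Rab13). They include the epithelial Rabs Rab17 and Rab25 and the melanosome Rabs Rab32 and Rab38. They were not tested, and a signal under 100 does not show that a transcript is absent.

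Where a gene had several probe sets, their changes could be set side by side. For 23 of the 39 genes 2 or more probe sets were tested, and in 12 of them all lay on the same side of 0, with a median gap of 0.24 on the log2 scale between the highest and lowest. Over the 80 Rab probe sets, 7 fell (11.5% of all probe sets did) and 3 rose (6.78% did). The 7 include those of Rab27a and Rab33a, which reached 100 on mock arrays only. The second probe sets of Rab43 and Rab24 fell as well, with log2 fold changes of -0.89 (adjusted p = 0.0187 from limma) and -0.67 (0.0283), while another of Rab43, under 100 on 5 of 6 arrays, had -0.30. The second of Rab37 was dim and had -0.63 (0.0947). Rab27a and Rab33a each had 1 tested probe set. The probe sets that rose were second sets, of Rab12 (signals of 553, 491 and 534 at 0 Gy and 768, 706 and 803 at 1 Gy, log2 fold change 0.53, adjusted p = 0.0415 from limma), of Rab11b and, by way of its irradiated arrays alone, of Rab30. For Rab11b the 3 probe sets disagreed, with 0.17, 0.52 (adjusted p = 0.0428) and -0.10. The second probe set of Rab7 had 0.42 (0.0677).

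**Figure D3:**
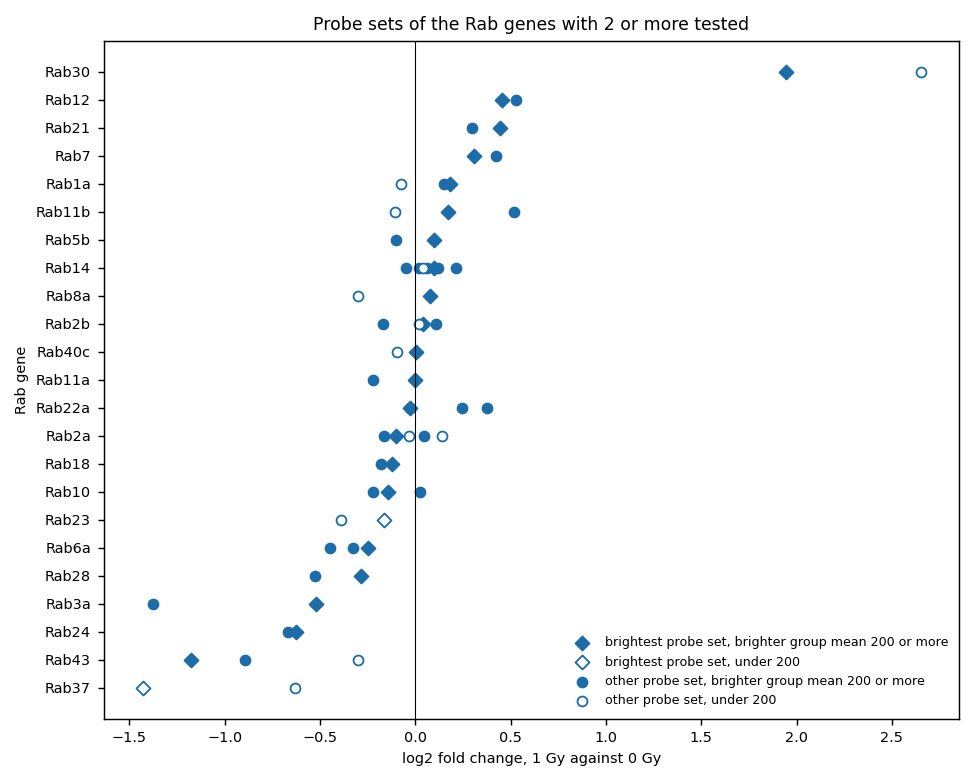
Log2 fold change (horizontal axis, 1 Gy against 0 Gy) of every tested probe set of the 23 Rab genes with 2 or more (vertical axis, ordered by the brightest probe set, drawn as a diamond). Open symbols are probe sets whose brighter group averaged under 200. Those of Rab24 lie together at -0.63 and -0.67, those of Rab43 spread from -1.18 to -0.30, and those of Rab11b lie on both sides of 0.

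The promoters of 4 of the 5 genes called lower are shown so that the called genes can be set beside each other in sequence. The RefSeq table (GRCm38.p6) held 35 of the 39 measured genes, with 45 start sites, and lacked Rab2a, Rab18, Rab30 and Rab37. The 250 bases before 1 start of Rab43 (the most upstream of 4), of Rab24, of Rab27a (the first of 2) and of Rab33a follow, 5' to 3', in lower case. Capitals mark the GC box GGGCGG on either strand, the only one of the searched motifs found in these 4 windows.
Rab43, chr6:87812165-87812414, minus strand: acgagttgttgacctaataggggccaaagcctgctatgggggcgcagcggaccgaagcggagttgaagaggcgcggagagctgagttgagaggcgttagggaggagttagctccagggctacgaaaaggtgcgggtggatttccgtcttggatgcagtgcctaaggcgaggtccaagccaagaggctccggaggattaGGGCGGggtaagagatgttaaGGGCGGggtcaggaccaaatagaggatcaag
Rab24, chr13:55321981-55322230, minus strand: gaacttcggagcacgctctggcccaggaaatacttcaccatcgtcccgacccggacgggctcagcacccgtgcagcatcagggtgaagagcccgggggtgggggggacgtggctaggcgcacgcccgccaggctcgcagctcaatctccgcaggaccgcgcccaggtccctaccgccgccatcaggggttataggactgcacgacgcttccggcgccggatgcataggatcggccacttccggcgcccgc
Rab27a, chr9:73044560-73044809, plus strand: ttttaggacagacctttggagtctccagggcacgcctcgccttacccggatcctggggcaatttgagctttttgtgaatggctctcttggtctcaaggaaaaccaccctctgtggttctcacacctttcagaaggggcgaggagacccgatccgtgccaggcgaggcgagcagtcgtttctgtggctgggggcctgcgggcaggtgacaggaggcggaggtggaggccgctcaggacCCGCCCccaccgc
Rab33a, chrX:48519035-48519284, plus strand: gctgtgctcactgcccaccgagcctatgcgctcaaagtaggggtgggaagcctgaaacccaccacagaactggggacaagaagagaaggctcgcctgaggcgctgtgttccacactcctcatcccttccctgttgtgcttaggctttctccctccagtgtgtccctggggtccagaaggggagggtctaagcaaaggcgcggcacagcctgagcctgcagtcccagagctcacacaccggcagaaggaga
The search covered both strands for the GC box, the CCAAT box (CCAAT), the E-box (CACGTG), the cAMP response element (TGACGTCA), the NF-κB consensus and the p53 half-site, each motif being counted on its own whether or not it overlapped another. The GC box lay in 30 of the 45 Rab windows (66.7%) and in 32.7% of all 32851 windows, and CCAAT in 42.2% and 33.9%. The E-box was found in 4 Rab windows, those of Rab5a, Rab21, Rab23 and the second start of Rab27a (8.89%, against 6.02% of all windows). The cAMP response element was found in 1 (Rab5a, 2.22%, against 1.55%). The NF-κB consensus was found in 3 (Rab11a, Rab15 and Rab28; 6.67%, against 7.25% of all windows) and the p53 half-site in 1 (Rab28; 2.22%, against 7.13%). The windows of Rab24 and Rab33a held none of the 6 motifs. Median GC content was 60.8% over the Rab windows and 52.4% over all.

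Genes of the proteins that control or read Rabs went in both directions. Of 128 measured regulator and effector genes, 7 rose (5.47%) and 14 fell (10.9%), beside 6.61% and 14.7% of all genes (limma with the line as a block). Of the 122 that reached 100 at both doses, 7 rose (5.74%) and 12 fell (9.84%), beside 6.64% and 14% of all such genes. Before adjustment, 14 of the 128 had p under 0.05 in the upward and 30 in the downward direction, beside 1204 and 2695 of all 9678 genes. The median log2 fold change of the list was -0.12. Without the block, limma called 4 higher and 2 lower, and with any 1 line left out 0 to 1 higher and 0 lower. The genes called without the block were Rilpl2, Dennd4a, Dennd5a and Tbc1d1 (higher) and Rabgap1l and Exoc6 (lower). Dennd5a counted both as an exchange factor and as an effector.

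Of 46 exchange factors, 4 rose and 4 fell, beside 6.61% and 14.7% of all genes. Dennd4a, a DENN domain exchange factor for Rab10, had signals of 1269.8, 1201 and 1609 at 0 Gy and 4888, 3435 and 4249 at 1 Gy. Every irradiated array lay well above every mock array (log2 fold change 1.62, SE 0.15, limma adjusted p = 0.0124). Its relative Dennd4b rose from 1693 ± 196 to 3617 ± 859.6 (log2 fold change 1.07, SE 0.13, limma adjusted p = 0.0164). Dennd5a, which binds Rab6 and can activate Rab39, had 4984, 5332 and 5199 at 0 Gy and 9999.5, 9595 and 9751 at 1 Gy (log2 fold change 0.92, SE 0.11, limma adjusted p = 0.0171), whereas Dennd5b fell from 7158 ± 1176 to 4060.3 ± 1243 (-0.86 on the log2 scale, limma adjusted p = 0.0267). Sbf2, a myotubularin-like protein with a DENN domain, rose from 89.3 ± 12.1 to 162 ± 48.9 (0.82, limma adjusted p = 0.0456).

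Of 33 GTPase activating proteins, 2 rose and 4 fell, beside 6.61% and 14.7% of all genes. Rabgap1l had 2836, 3156 and 3307 at 0 Gy and 1042, 895 and 808 at 1 Gy. The lines fell alike and the doses lay far apart (log2 fold change -1.76, SE 0.16, limma adjusted p = 0.0121, and 0.0109 without the block). Tbc1d10c, which also restrains calcineurin in lymphocytes, fell from 2833 ± 1031 to 1389 ± 718 (-1.08 on the log2 scale, limma adjusted p = 0.023), and Tbc1d7, a subunit of the tuberous sclerosis complex, from 280.1 ± 22.1 to 163 ± 41.1 (-0.81, limma adjusted p = 0.0359). Tbc1d1, known from glucose transporter traffic in muscle, rose from 622 ± 108 to 1211 ± 151 (0.97, limma adjusted p = 0.0166) and Tbc1d2b from 204 ± 115 to 397 ± 171 (1.00, limma adjusted p = 0.0354).

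Of 42 effectors, 2 rose and 5 fell, beside 6.61% and 14.7% of all genes. Rilpl2, a RILP-like protein that binds phosphorylated Rab8 and Rab10, had 1660.1, 1171 and 1953 at 0 Gy and 6105, 5534 and 6971 at 1 Gy, the largest rise among the called genes of the list (log2 fold change 1.99, SE 0.14, limma adjusted p = 0.0103). Among those that fell, Myo5a is the myosin that carries Rab27a-bound organelles (2109 ± 463 to 1294 ± 220.4, log2 fold change -0.70, SE 0.14, limma adjusted p = 0.0356). Rph3al, which binds Rab3 and Rab27 proteins on secretory vesicles, reached 100 on mock arrays only, with 125, 129 and 207 at 0 Gy and 76.0, 69.7 and 75.7 at 1 Gy, and is counted among the 5 by that route. Exoc6, the exocyst subunit that binds Rab11, had 1044, 998 and 1085 at 0 Gy and 665, 522 and 545 at 1 Gy (-0.86, adjusted p = 0.0224 from limma). Of the 8 genes of prenylation, membrane cycling and Rab phosphorylation, 1 was called lower, the Rab kinase Lrrk2, whose signals of 128, 145 and 161 at 0 Gy and 47.6, 45.0 and 90.5 at 1 Gy also reached 100 on mock arrays only. Gdi2, a GDP dissociation inhibitor chosen here after its values were seen, stood at 14666 ± 615 and 12971 ± 1046 (95% interval -0.47 to 0.12), and the prenyltransferase subunit Rabggtb and the escort protein Chm had log2 fold changes of 0.16 and 0.23.

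**Figure D4:**
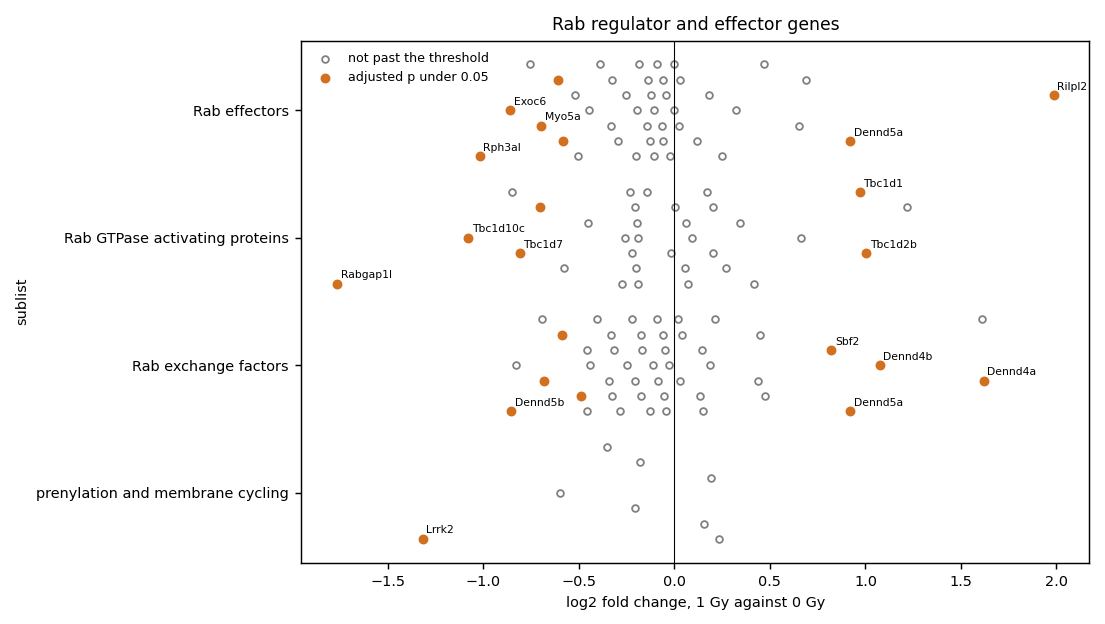
Log2 fold change (horizontal axis, 1 Gy against 0 Gy) of the 128 measured regulator and effector genes in 4 sublists (vertical axis; height within a sublist only separates the points). Filled points passed an adjusted p of 0.05 with the line as a block, and up to 5 per sublist are named. Of the points, 95 lie between -0.5 and 0.5, with Rilpl2 and Dennd4a furthest right and Rabgap1l furthest left among the filled ones.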

How the data were processed

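The authors deposited intensity values on a linear scale, and MAS5 is the tool in the submitters' processing notes. Trimmed of 2% at each end, every array averaged 500, and the medians differed between arrays, so the quantile normalization stated in the methods was not applied to these values. Signals under 1 were set to 1 and log2 values taken. After removal of 64 control probe sets, the 21762 of 45037 others that reached 100 on at least 1 array were fitted with limma (3.58.1, R 4.3.3), 1 Gy against 0 Gy with the line as a block, and Benjamini-Hochberg adjustment over all of them, an adjusted p under 0.05 being a call. The published ANOVA names no line factor, and the fit without the block is given beside the calls. The design text of the series pairs the arrays, and deviations from the group means correlated at 0.668 to 0.781 between arrays of 1 line (3 pairs) and at -0.495 to -0.0525 otherwise (6 pairs). Gene names came from the platform annotation (34945 probe sets with 1 name, 932 with several, 9160 not listed). The script was tested on simulated data.

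Named in full were the called Rab genes, the brightest of each compartment and those that moved 1.5-fold or more in all lines. Signals of Rab3a, Rab12, Rab30 and Rab31 were added after their values were seen. Of the regulators, up to 5 called genes per sublist with the largest change were named. Compartments and lists rest on general knowledge, and members and lists were chosen with earlier results of these data known. Alternatives were no block, other filters, 2 other normalizations, log2 of the signal plus 16, a floor of 100, a trend in the variance prior, the mean of a gene's probe sets, the methods' test, and leaving out each line. Dropping 1 array of a line leaves its partner without a contrast in the blocked fit, so whole lines were left out. The number of arrays limits the precision.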

Additional observations from a re-analysis of the deposited data

How the results depend on the processing

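The log2 fold changes of Rab7, Rab12, Rab21, Rab24, Rab27a, Rab30, Rab31, Rab33a, Rab37 and Rab43 kept their direction in each alternative limma fit that tested the gene, while the methods' test gave counts only. With no block, other filters or a variance trend the estimate stays the same by construction. All but Rab30 moved alike in 3 of 3 lines and so could not reverse with 1 line left out. These fits therefore do not test direction. Rab27a, Rab33a and Rab30 were admitted by 1 dose alone. Rab genes called lower (5) numbered 1 with no replicate block, 0 with no filter on dim probe sets (6 at an unadjusted p under 0.05), 3 with signals under 100 set to 100, 3 by the methods' test at its own thresholds and 0 after its Benjamini-Hochberg adjustment, and 0 without each line in turn. Rab genes called higher (0) numbered 1 with a minimum of 100 on 3 or more arrays, after quantile normalization, with log2 of the signal plus 16 and with the floor of 100, in each case Rab12. They numbered 3 with a trend in the variance prior (Rab12, Rab21 and Rab30), 2 with the mean of all probe sets (Rab12 and Rab30), and 0 to 1 without single lines (Rab30, without line 3). Rab30 reached 100 on irradiated arrays only, so its calls are a description. Regulator and effector genes called higher (7) numbered 4 with no replicate block, 0 with no filter, 11 with the mean of all probe sets, 1 by the adjusted methods' test and 0 to 1 without single lines. Those called lower (14) numbered 2, 0 and 2 with no replicate block, with no filter and by the adjusted methods' test, 9 after scaling to a common median, 25 with the variance trend and 0 without each line in turn. The Rab median log2 fold change (-0.12) was 0.00 with the floor of 100 and ranged from -0.145 to 0.008 without single lines. Scaling to a common median moved the median of all probe sets by 0.049. Without line 1 or line 2, limma called 0 of all probe sets (6570 and 6460 at an unadjusted p under 0.05), and without line 3 it called 299. The causes were not tested.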

Other observations

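GTPases that resemble Rabs but are named otherwise were measured for 5 genes, of which 2 were called lower and 0 higher (limma with the line as a block), beside 14.7% and 6.61% of all genes. Rabl2, a Rab-like GTPase of ciliary transport, reached 100 on mock arrays only, with means of 159.8 ± 42.9 at 0 Gy and 82.8 ± 14.4 at 1 Gy (SD, n = 3 lines; limma adjusted p without the block 0.11), and its difference is a description. Ift27, a Rab-like subunit of the intraflagellar transport complex, had signals of 475, 373 and 1092 at 0 Gy and 348, 209.8 and 668 at 1 Gy (-0.66, adjusted p = 0.0376, and 0.548 without the block). Ift22, Rabl3 and Rabl6 had log2 fold changes of -0.31, 0.20 and 0.06.

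Further partners of Rab27a, chosen after the values of that gene were seen, did not pass the test. Madd, an exchange factor for Rab3 and Rab27 proteins, had mean signals of 1251 ± 263 at 0 Gy and 898 ± 82.0 at 1 Gy (log2 fold change -0.46, adjusted p = 0.0959 from limma). The effectors Sytl1 and Unc13d had log2 fold changes of -0.52 (0.148) and -0.25 (0.187).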
